A study of Medicago truncatula with 48 samples.

Results

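A set of 50 transcripts of Medicago truncatula with their highest standard-temperature level in the embryo at stage S3 is described here, out of 44473 transcripts in the deposited table. The members were chosen by their measured values. For each library, y was the CPM of a transcript on the total left after the 100 largest estimated counts of that library were removed. Among 44316 nuclear identifiers, 12507 had a mean y of 10 to 2000 in embryo S3 at standard temperature, and 846 of these were highest in embryo S3 among the 10 standard-temperature groups. The 50 members were those of the 846 whose log2(mean y + 1) in embryo S3 was at least 1 above the second-highest group, so a limit of 150 members was not reached. The gap ran from 1.00 to 2.13, with 1.0004 in the last member and 0.99997 in the first transcript left out. A further 40 transcripts met the gap but had a mean y under 10, and 1 was above 2000.

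All plants were of genotype A17, the reference line for genome work in this legume, and the seeds were dissected into embryo, endosperm and seed coat. Standard temperature was 20 °C by day and heat stress, applied from flowering time, was 26 °C by day, while the sources differ on the night temperatures. Embryo and endosperm were sampled at S1, S2, S3 and S4, which fell at 17, 26, 36 and 44 days after pollination (DAP) in standard plants and at 14, 17, 22 and 28 DAP in heat-stressed ones. Seed coat was sampled at S1 and S2. Each embryo group had 3 replicates and each endosperm or seed coat group 2, and an embryo replicate was a lot of at least 50 dissected embryos, so values are averages over many seeds. Embryos of one stage differed in age between temperatures, and age and temperature cannot be told apart in any comparison between the temperatures. In tissue lots, fewer cells of one type and less RNA per cell cannot be told apart either.

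During seed maturation the embryo stores protein and oil, becomes able to survive drying, and then gains longevity, the ability to stay alive in dry storage. These steps run under the control of abscisic acid and maturation regulators, and late maturation is known for the build-up of late embryogenesis abundant proteins, heat shock proteins and sugars of the raffinose family. S1 and S2 lay before and after desiccation tolerance was acquired, S3 lay at the start of longevity acquisition and the end of seed filling, and S4 was the mature seed. No identifier of the table could be paired with a name in the gene table used here, so members are given by identifier, and no gene name, function or sequence is assigned to them.

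Embryo libraries held 17690405 to 20084649 estimated counts. Of the embryo libraries, replicate 3 of S3 at standard temperature had the most transcripts detected, 29555, against 25938 and 24010 in replicates 1 and 2, and replicate 3 of S4 under heat stress had 28128 against 24785 and 24833. The summed y of 111 endosperm-high transcripts, listed from the standard-temperature libraries without embryo S3, was 330, 107 and 407 in replicates 1, 2 and 3 of S3 at standard temperature, and 141, 140 and 303 in those of S4 under heat stress. It was 49.7 to 168.8 in the other embryo libraries and 13945 to 51463 in endosperm libraries. Of these 111 transcripts, 17, 25 and 4 were at 0 in the S3 libraries at standard temperature. The summed y of 498 seed-coat-high transcripts was 1052, 489 and 1152 in the same S3 libraries and 520, 530 and 835 in S4 under heat stress. It was 160536 to 361415 in seed coat libraries. Over all embryo libraries it ran from 299.7 to 2806, with the highest sum in a heat-stress S1 library. In embryo it was 300 to 316 in standard S4 and 431 to 486 in heat-stress S3. None of the 50 members was in either list. The members themselves summed to a y of 3660, 2461 and 3499 in embryo S3 at standard temperature and to 154 to 575 in endosperm and seed coat libraries. The rule asked for lower levels in standard endosperm and seed coat, so these low sums and the absence from the lists were favoured in advance. For both lists the listed tissue was far above the embryo, and the part of other tissues in the replicate differences below was not tested.

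In embryo S3 at standard temperature the members did not form 1 pattern over the replicates. Replicate 2 was the lowest library for 37 of the 50 members (74%), against 49.6% of the 12507. For 24 members it was below 50% of both other replicates, which is 48% of the members against 11.9% of the 12507 nuclear transcripts of the same level. Over the 50 members the median y was 40.8, 19.3 and 40.5 in replicates 1, 2 and 3, and over the 12507 transcripts it was 39.6, 33.4 and 39.3. The highest replicate was under 2 times the lowest for 21 members, 42.0%, against 83.7% of the 12507. These values chose the members and carry no test.

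MtrunA17_Chr1g0167431, the member with the largest gap, was one of the 24. Its y in embryo S3 at standard temperature was 45.1, 8.28 and 56.8, and its next group, embryo S4, had 6.46, 8.83 and 7.58. Replicate 2 of S3 thus lay within the range of S4, and the other replicates lay far above it. MtrunA17_Chr4g0002111 rested on 1 library, with a y of 1.13, 0.484 and 52.8, and it was the only member in which replicate 3 was over 2 times both others.

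Over the other 26 members the median y was nearly the same in the 3 replicates, 36.7, 36.2 and 33.9. MtrunA17_Chr7g0225611 had a y of 381, 430.5 and 344 in embryo S3 against 115, 116 and 124 in embryo S4, its second-highest group. MtrunA17_Chr2g0285061 had 38.2, 42.5 and 51.8 in S3 against 9.27, 11.2 and 11.7 in S2. In both, every S3 library was above every library of the next group. MtrunA17_Chr5g0399531, with the second-largest gap, had 8.64, 13.9 and 8.75 in embryo S3, and 0 in the embryo libraries of S2 and S4, all at standard temperature.

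**Figure D1:**
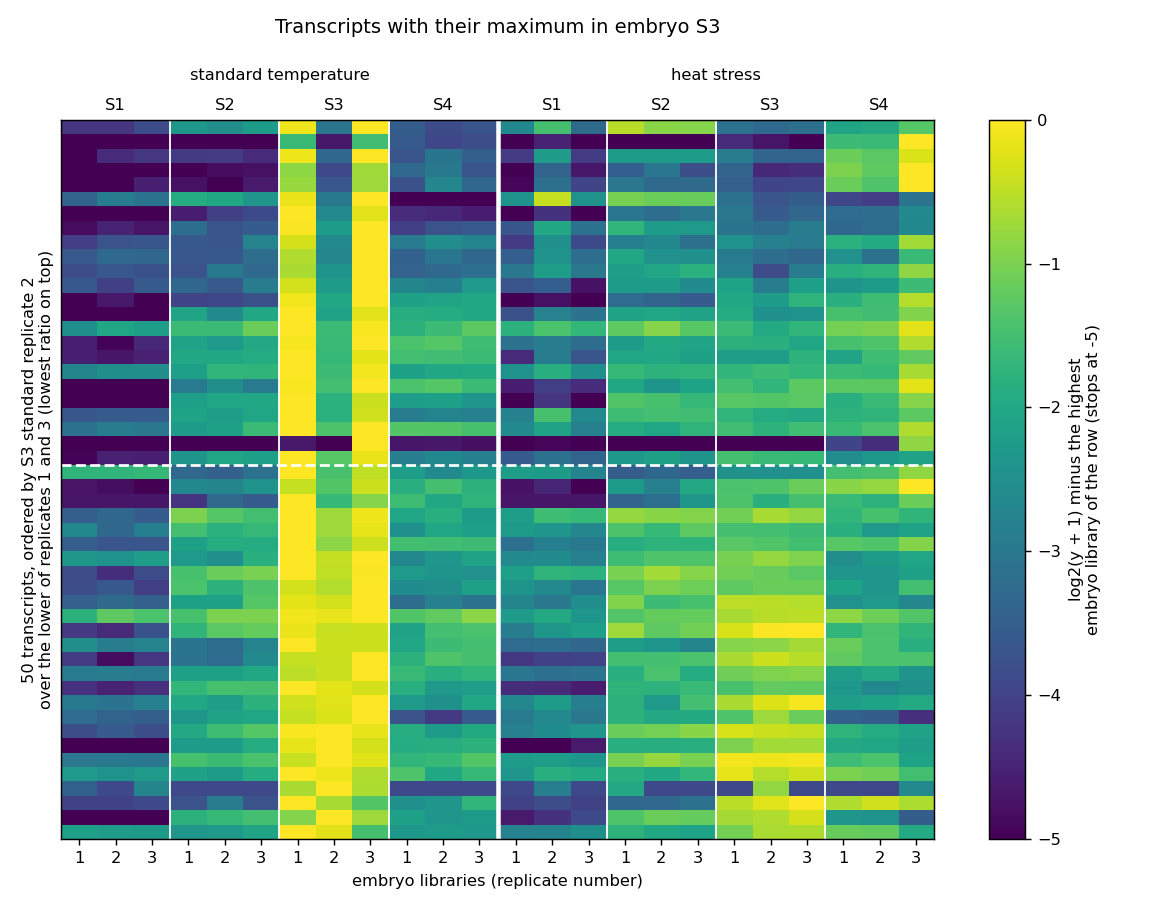
Heat map of 50 transcripts (rows) in the 24 embryo libraries (columns, by temperature, stage and replicate). Colour is log2(y + 1) minus the highest embryo library of the row, and the dashed line separates the 24 members whose y in replicate 2 of S3 at standard temperature was below 50% of both others (above) from the other 26 (below). The upper rows are bright in replicates 1 and 3 of standard S3 and in replicate 3 of heat-stress S4, and the lower rows in all standard S3 libraries and most heat-stress S3 libraries.

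Which transcripts met the rule also changed with the library left out. Without replicate 1 the rule found 34 transcripts, which included 30 of the members, and without replicate 3 it found 36, which included 33. Without replicate 2 it found 107, of which 48 were members, so that 96.0% of the members and 44.9% of the longer list were shared. With the median of each group in place of the mean it found 79, including 43 members. The scaling of the libraries changed the list more. With CPM of the whole library the rule found 15 transcripts, including 11 members (22%). With TMM-scaled CPM, the scaling of the tests, it found 20, all of them members (40%). In each of these scalings most members no longer met the rule.

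Among the other standard-temperature groups, the second-highest was embryo S2 for 17 members, embryo S4 for 14, an endosperm stage for 11, a seed coat stage for 6 and embryo S1 for 2. Of the 26 members without a low replicate 2, 21 had embryo S2 or S4 as the next group. Of the 24 with a low replicate 2, 10 had one of these. In embryo S1 at standard temperature 19 of the 50 had a mean y under 1, and the median of the means was 1.43. The medians of the means were 9.09 in embryo S2, 34.97 in embryo S3 and 8.20 in embryo S4, and in endosperm they ran from 0.98 at S1 to 4.83 at S4.

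The levels at both temperatures are set side by side next, as a description only, since the rule asked for a high value in standard embryo S3 and for lower values in all other standard-temperature groups, endosperm and seed coat included. Nothing is read from their directions or counts. The median log2 ratio of heat stress to standard temperature, on mean y + 1, was -1.16 at S3, and 47 of 50 members were lower. The median over the 12507 transcripts was -0.21. All standard libraries were above all heat-stress libraries for 28 members (56%, against 31.9% of the 12507), and the heat-stress mean was under 50% of the standard mean for 29 (58%, against 12.5%). At S1, S2 and S4 the median log2 ratios were 0.64, 0.41 and 0.55, with 39, 45 and 44 of 50 members higher under heat stress, against 57.9%, 58.5% and 53.1% of the 12507 with medians of 0.09, 0.05 and 0.03. At S1 the number was 28 with CPM of the whole library. Replicate 2 of heat-stress S1 stood apart from its group, with a summed y of the members of 636 against 412 and 431, and with the highest sum of the seed-coat-high list among embryo libraries, 2806. The medians also changed with the scaling of the libraries. At S3 the members' median was -1.35 with CPM of the whole library and -0.90 with TMM-scaled CPM, where all 12507 transcripts had medians of -0.45 and 0.00, and relative to all transcripts the members lay at -0.95, -0.90 and -0.91 in the 3 scalings. With CPM of the whole library and TMM-scaled CPM, the medians at S1, S2 and S4 were between 0.06 and 0.45. In endosperm the median log2 ratio was 0.65 at S2 and 0.73 at S3, each with 46 members higher, and -0.18 at S4 with 17 higher. Of the 12507 transcripts, 6271, 5772 and 6255 were higher under heat stress in these groups, with medians of 0.00, -0.03 and 0.00.

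The difference at S3 was not of one size. It had a median of -1.93 in the 24 members with a low replicate 2 and of -0.60 in the other 26. The standard S3 values set both this split and the ratio, so nothing is read from the contrast of these medians. In MtrunA17_Chr4g0006841, the y at S3 was 91.3, 12.04 and 101 at standard temperature and 10.6, 6.95 and 7.85 under heat stress, a log2 ratio of -2.87. Replicate 2 at standard temperature lay close to the heat-stress values, though above them. The 3 members that were not lower under heat stress were all among the 26, and the largest difference was 0.32 in MtrunA17_Chr2g0317881, with 15.3, 9.38 and 5.47 at standard temperature and 10.3, 12.8 and 15.2 under heat stress. The groups overlapped in it.

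**Figure D2:**
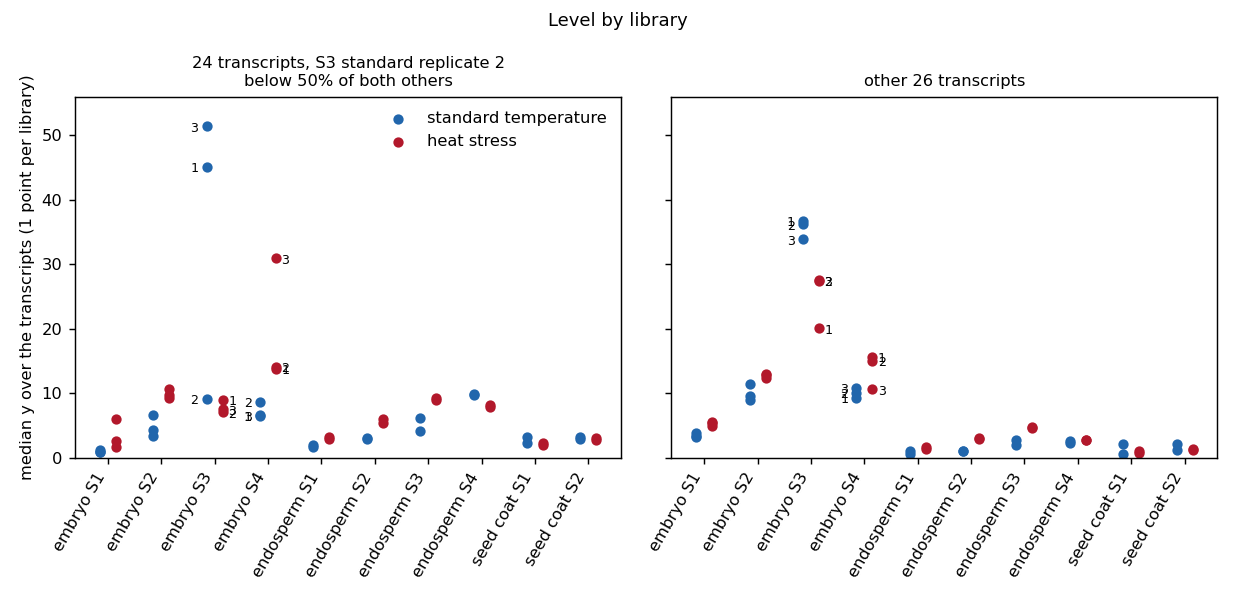
Median y over 24 members with a low replicate 2 in standard S3 (left) and over the other 26 (right), 1 point per library, for the 10 tissue-stage groups at standard temperature (blue) and under heat stress (red). Digits mark the replicate in embryo S3 and S4. In the left panel replicates 1 and 3 of standard S3 reach 45.1 and 51.4 while replicate 2 is at 9.16, near the heat-stress S3 libraries at 7.04 to 9.005. In the right panel standard S3 lies at 33.9 to 36.7 and heat-stress S3 at 20.1 to 27.5.

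The heat-stress libraries took no part in choosing the members, so the stage at which the members were highest was read again there. By group means over the 10 heat-stress groups, 20 members were highest in embryo S3 (40%, against 6.71% of the 12507 transcripts), 19 in embryo S4 (38%, against 16.3%), 7 in embryo S2 (14%, against 7.004%) and none in embryo S1 (against 12.7%). The other 4 were highest in an endosperm or seed coat group (8%, against 57.3%), so most of the 12507 were highest outside the embryo. These counts were 21 and 16 for S3 and S4 without replicate 3 of heat-stress S4, a setting chosen after the data were seen. Of the 26 members without a low replicate 2, 19 were highest in S3 and 4 in S4, while of the other 24, 1 was highest in S3 and 15 in S4. This division was made after the values were seen and carries no test.

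**Figure D3:**
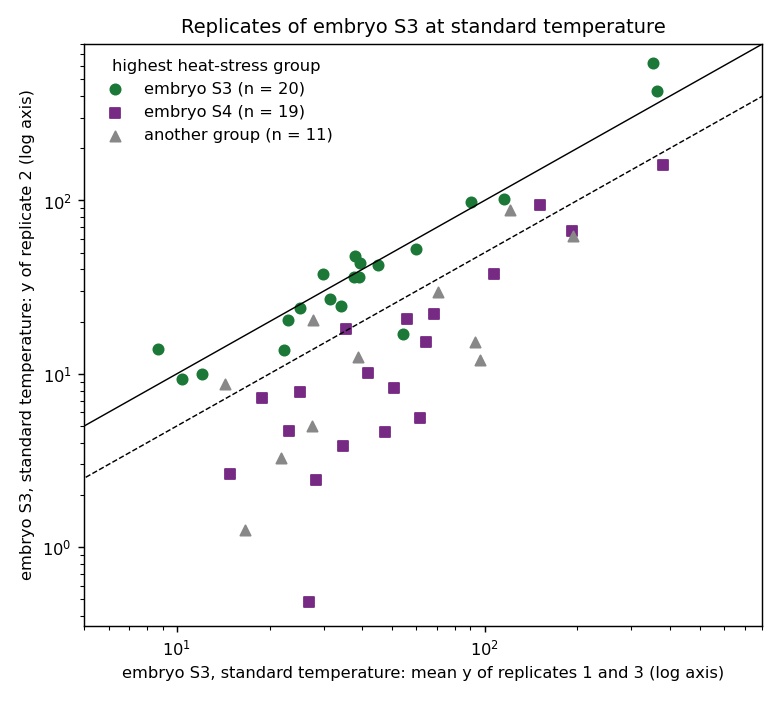
Mean y of replicates 1 and 3 (x axis, log scale) against y of replicate 2 (y axis, log scale) in embryo S3 at standard temperature, 1 point per member, with the symbol giving the group in which the member was highest under heat stress. The solid line marks equal values and the dashed line 50%. The 20 members highest in heat-stress S3 lie near the solid line with few exceptions, and most of the 19 highest in heat-stress S4 lie below the dashed line.

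Embryo S3 was then compared with each other embryo stage within heat stress, in 1 fit of the 12 heat-stress embryo libraries with edgeR's quasi-likelihood test. A difference was called at an adjusted p-value below 0.01 over 20487 transcripts, and all 50 members passed the filter on low counts. A total of 15 members were called higher in S3 than in S1, S2 and S4, 30% of the members against 2.86% of all transcripts tested. Of these 15, 14 were also called higher in embryo than in endosperm at S3, a direction called for 24.4% of all transcripts in that test. The share among all transcripts called above S1, S2 and S4 was not computed, so nothing is read from the 14. The count was 9 without replicate 2 of heat-stress S3, and between 13 and 15 without each of the replicates of heat-stress S4. With a fold change of at least 2 asked in each test, 6 members were left.

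Against S1, 35 members were higher in S3 and 1 was lower, with 28.5% and 26.0% of all transcripts called in these directions. The median log2 fold change was 1.92 over the members and 0.05 over all transcripts. MtrunA17_Chr8g0347481 had no count in any heat-stress S1 library and a y of 8.87, 6.26 and 8.30 in S3. Measured against a floor of 3 counts over the S1 group, it was at least 50.9-fold higher in S3 (adjusted p = 8.5e-07, edgeR quasi-likelihood test), and its counts were never whole, so it may share reads with a similar transcript. MtrunA17_Chr2g0317881 had 1 count over the 3 S1 libraries and 221 over the S3 libraries, a ratio of 247 with an exact 95% counting interval of 43.8 to 9780 (edgeR adjusted p = 4.8e-09). Both thus had at most 1 count in the youngest heat-stress embryos at this depth.

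MtrunA17_Chr4g0006841 was the member lower in S3 than in S1. Its y was 17.7, 74.1 and 17.8 in heat-stress S1 and 10.6, 6.95 and 7.85 in S3, a log2 fold change of -1.95 ± 0.48 (SE, adjusted p = 0.0029 in edgeR's test). All S1 libraries were above all S3 libraries, and replicate 2 of S1 was far above the others. The sum of the seed-coat-high list was 2806 in that library against 980 and 1008 in the other S1 replicates, and the part of this in the result was not tested. The call was lost without replicate 2 or replicate 3 of S3.

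Against S2, 23 members were higher in S3 and 2 were lower, with 21.2% and 21.4% of all transcripts called. The median log2 fold change was 0.62 over the members and -0.03 over all transcripts. MtrunA17_Chr2g0317881 rose from 0.649, 0.660 and 0.866 in S2 to 10.3, 12.8 and 15.2 in S3, a log2 fold change of 4.28 ± 0.33 (SE, edgeR adjusted p = 1.5e-07). MtrunA17_Chr4g0069881 rose from 6.92, 6.14 and 4.55 to 18.5, 19.1 and 22.1, a log2 fold change of 1.94 ± 0.23 (SE, edgeR adjusted p = 8.9e-06). The groups did not overlap in either.

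The pair lower in S3 than in S2 under heat stress had high values in replicates 1 and 3 of standard S3. MtrunA17_Chr4g0069591 had 11.7, 8.99 and 8.88 in S2 and 1.13, 0.891 and 1.07 in S3 under heat stress, and its log2 fold change was -3.05 ± 0.51 (SE, edgeR adjusted p = 0.00020). At standard temperature it had 15.8, 1.25 and 17.4 in S3. MtrunA17_Chr4g0006841 was also lower, with a log2 fold change of -2.28 ± 0.49 (SE, edgeR adjusted p = 0.0013). By group means both were highest at S2 under heat stress.

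Against S4 the members moved both ways, with 19 higher in S3 and 13 lower, where 29.1% and 20.7% of all transcripts were called. The medians were 0.07 over the members and 0.13 over all transcripts, and the shares of members called were 38% and 26%. Calls in both directions were thus not particular to the members. The balance of the members' calls depended on the libraries that chose the list, in settings chosen after the data were seen. Of the 107 transcripts found without replicate 2 of standard S3, 21 were higher and 43 lower (19.6% and 40.2%), while of those found without replicate 1 or 3, 52.9% or 50% were higher and 14.7% or 11.1% lower. MtrunA17_Chr2g0285061 had a y of 19.3, 30.7 and 23.4 in S3 and 3.82, 3.59 and 1.64 in S4, a log2 fold change of 3.06 ± 0.27 (SE, edgeR adjusted p = 6.7e-07). MtrunA17_Chr4g0030741 had 8.87, 8.73 and 8.56 in S3 and 1.53, 1.85 and 1.19 in S4, a log2 fold change of 2.54 ± 0.28 (SE, edgeR adjusted p = 4.7e-06). The replicates of standard S3 also lay close together in both, with 11.1, 10.004 and 12.98 in MtrunA17_Chr4g0030741.

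The transcripts lower in S3 than in S4 under heat stress included MtrunA17_Chr3g0082231, with 3.14, 2.32 and 0.713 in S3 and 28.4, 27.7 and 86.5 in S4. Its log2 fold change was -4.47 ± 0.52 (SE, edgeR adjusted p = 7.4e-06), and replicate 3 of S4 was the highest library. MtrunA17_Chr4g0002111 had 0.161, 0.356 and 0.361 in S3 and 2.47, 1.64 and 29.4 in S4, a log2 fold change of -5.14 ± 1.22 (SE, edgeR adjusted p = 0.0024). The call was lost when any 1 of the 3 S3 libraries was left out. The number of members called lower in S3 than in S4 was 11 without replicate 3 of S4, 8 without replicate 2 of S3 and 7 without replicate 3 of S3.

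**Figure D4:**
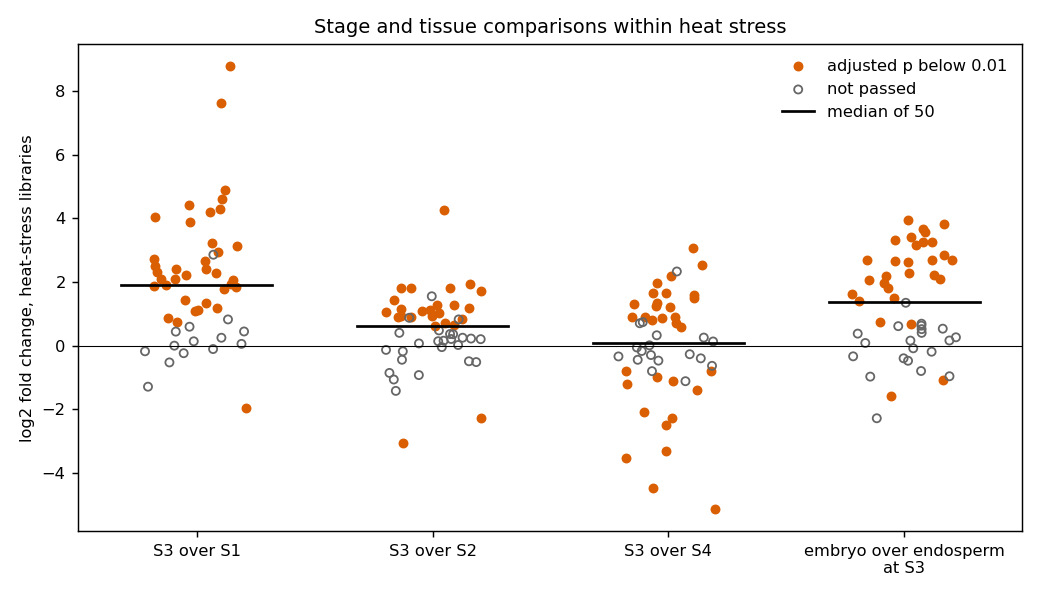
Log2 fold change of the 50 members (1 point each) in 4 comparisons within heat stress. Filled points have an adjusted p-value below 0.01 in edgeR's quasi-likelihood test, open points do not, and bars mark the medians of 1.92, 0.62, 0.07 and 1.37. The points of S3 over S1 lie mostly above 0, while those of S3 over S4 spread to both sides. The highest point, for S3 over S1, belongs to a transcript without counts in S1, for which the fitted value is no measure of size.

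The library that stood highest in heat-stress S4 was the same for most members with a low replicate 2 in standard S3. Replicate 3 of heat-stress S4 was the highest of its group for 24 of these 24 members and for 9 of the other 26, against 47.6% of the 12507 transcripts. It was over 1.5 times both other replicates for 20 of the 24 and 4 of the 26, or 24 of 50, against 13.7% of the 12507. Over the 24 members the median y was 13.8, 14.1 and 31.0 in replicates 1, 2 and 3 of heat-stress S4, and 9.005, 7.04 and 7.49 in heat-stress S3. Over the other 26 it was 15.7, 15.01 and 10.6 in S4, and 20.1, 27.5 and 27.4 in S3.

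The same link was present over all transcripts of this level. Of the 12507, 1483 had a replicate 2 below 50% of both others in standard S3, and replicate 3 of heat-stress S4 was the highest of its group in 98.9% of them, against 40.7% of the other 11024. The heat-stress S3 mean was under 50% of the standard S3 mean in 79.4% of the 1483 and in 3.47% of the others. The standard S3 values set both this split and the S3 ratio, so a larger fall in the 1483 was favoured in advance. These are descriptions over transcripts of the same libraries, which are not independent replicates. The libraries that stood high were also those with higher sums of the endosperm-high and seed-coat-high lists within their groups, as given above, and the part of this in the pattern was not tested.

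**Figure D5:**
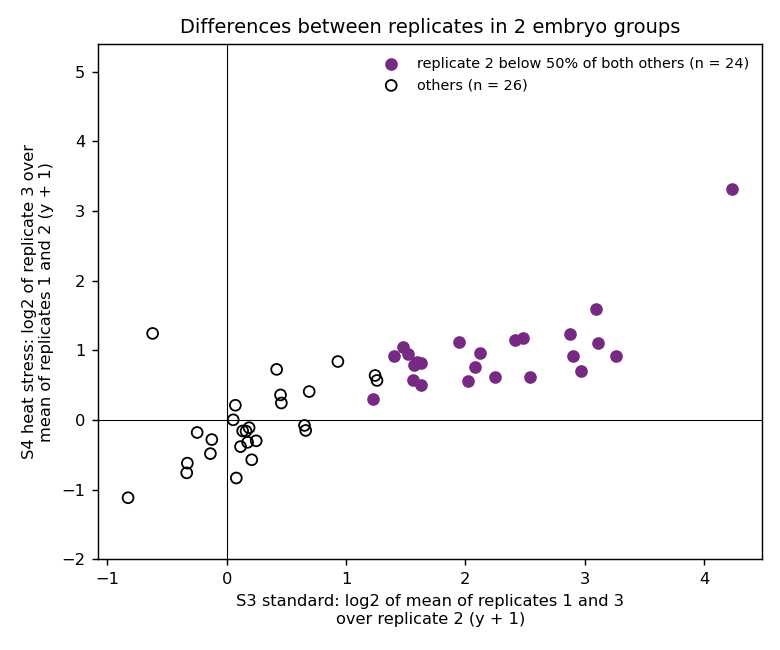
Difference between replicates in embryo S3 at standard temperature (x axis, log2 of the mean of replicates 1 and 3 over replicate 2) and in embryo S4 under heat stress (y axis, log2 of replicate 3 over the mean of replicates 1 and 2), both on y + 1, 1 point per member. The 24 members with a low replicate 2 (filled) all lie above 0 on the y axis, and the other 26 (open) lie on both sides.

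Embryo was compared with endosperm at S3 under heat stress in 1 fit of 20 libraries. Of the members, 27 were higher in embryo and 2 were lower, with 24.4% and 34.4% of 26025 transcripts called. The median log2 fold change was 1.37 over the members and -0.27 over all transcripts. MtrunA17_Chr1g0156061 had a y of 22.3, 27.2 and 27.7 in embryo and 1.60 and 2.04 in endosperm, a log2 fold change of 3.96 ± 0.27 (SE, edgeR adjusted p = 3.9e-10). Most of its counts were not whole.

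MtrunA17_Chr2g0279531, a transcript of 277 bases, had 393, 411 and 498 in embryo and 33.4 and 34.5 in endosperm under heat stress. Its log2 fold change was 3.84 ± 0.33 (SE, edgeR adjusted p = 1.1e-08). At standard temperature it had 330, 625 and 374 in embryo S3, with replicate 2 the highest. MtrunA17_Chr7g0225611 had 216, 266 and 264 in embryo and 29.4 and 28.7 in endosperm, and it was also above heat-stress S1, S2 and S4. These 2 members held the largest y at heat-stress S3, a scale that is not corrected for transcript length.

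The members lower in embryo than in endosperm were MtrunA17_Chr4g0042271, with 7.91, 5.19 and 5.17 against 19.7 and 21.2, and MtrunA17_Chr7g0261331, with 11.4, 7.49 and 8.92 against 19.2 and 24.5. Their log2 fold changes were -1.58 ± 0.41 and -1.07 ± 0.28 (SE, edgeR adjusted p = 0.0022 and 0.0027). At standard temperature the same transcripts had 58.8, 5.53 and 64.2, and 99.95, 15.2 and 85.8, in embryo S3, against 14.02 and 15.2, and 22.8 and 15.3, in endosperm S3. In both, replicate 2 of standard S3 was below the endosperm libraries and the other replicates were far above it. Both calls were lost without replicate 2 or replicate 3 of heat-stress S3, without replicate 2 of endosperm, or in a fit of both temperatures.

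The members lay on all 8 chromosomes by their identifiers, with 10 on chromosome 4 and 2 on chromosome 6. The median length was 1960 bases, against 1838 over 19243 nuclear transcripts with a highest group mean of 10 to 2000. Estimated counts that are not whole arise when reads fit several transcripts, and 50% or more of the nonzero counts were not whole, within 0.0005, for 16 members (32%, against 28.5%), 12 of the 24 and 4 of the 26. MtrunA17_Chr3g0100131 and MtrunA17_Chr3g0100141, with neighbouring identifiers and named after their values were seen, had no whole counts. Their y in standard S3 was 34.3, 3.85 and 35.1, and 45.1, 4.601 and 49.9, and in heat-stress S4 26.7, 22.3 and 59.3, and 40.9, 34.2 and 82.1. They may share reads and so may not be independent, but each entered all counts as a separate member. The same holds for MtrunA17_Chr2g0326491 and MtrunA17_Chr2g0326521, which lay 3 identifiers apart. All of these were among the 13 members called lower in S3 than in S4 under heat stress.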

How the data were processed

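Single-end reads were assigned by the authors to version 5 of the A17 transcriptome with Salmon 0.14.1, and the table deposited for the 48 libraries holds raw estimated counts that are not normalized. The deposited transcript lengths in bases were used only to describe the members. Members and lists were chosen with earlier results of these data known. For y, counts were divided by the library's total without its 100 largest counts. For tests, counts were rounded, filtered by filterByExpr (minimum count 10, total 15), scaled by TMM and tested with edgeR 4.0.16 (limma 3.58.1, R 4.3.3), with Benjamini-Hochberg adjustment over all transcripts tested. Only heat-stress libraries were tested, since the standard-temperature libraries chose the members. Replicates are separate lots by the labels. The endosperm-high and seed-coat-high lists took transcripts whose lowest group mean in that tissue was at least 20 and at least 20 times the highest of embryo S1, S2 and S4 at standard temperature.

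Transcripts named were those with the 2 largest gaps, up to 2 called per direction and test with the largest log2 fold change, the 2 with the highest heat-stress S3 y and the 2 with the largest fall at S3. Neighbours were read from identifier order, not from the order of the deposited table as planned, since the table is not in chromosome order. The alternatives were other scalings (RLE, library size, total without the 100 largest counts), other filters, DESeq2 1.42.0, a replicate block, both temperatures in 1 fit, other thresholds and leaving out each library. The tests were tested on simulated counts. Counting intervals and the floor of 3 counts cover counting error only. Library totals of 17690405 to 53776178 limit the precision of low transcripts.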

Additional observations from a re-analysis of the deposited data

Results flagged for a closer look

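For 4 members the order of S3 and S4 was opposite at the 2 temperatures: all libraries of heat-stress S4 were above all of heat-stress S3, while all libraries of standard S3 were above all of standard S4. They were MtrunA17_Chr4g0069591, MtrunA17_Chr1g0160251, MtrunA17_Chr5g0403421 and MtrunA17_Chr6g0464561, of which all but the first were named after their values were seen. MtrunA17_Chr5g0403421 had a y of 442, 159.6 and 316 in standard S3 and 95.1, 70.5 and 87.4 in standard S4, and 81.4, 78.4 and 78.7 in heat-stress S3 and 157, 162 and 249 in heat-stress S4. Of the 12507 nuclear transcripts of the same level, 5.68% had this order, against 8% of the members. Among transcripts with all of standard S3 above all of standard S4, which the rule favours, they were 4 of 37 members and 711 of 5587 of the 12507, so the share was not higher in the members. The direction at standard temperature was set by the rule, and the difference between the temperatures was not tested.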

How the results depend on the processing

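The counts of members called kept within 1.5 times their value under RLE, scaling by the total without the 100 largest counts, no filter, DESeq2 (15 above all stages against 13) and an adjusted p-value below 0.05. With library size only, the S3 to S4 comparison gave 11 higher and the tissue comparison 9 lower. This scaling moved the median of all transcripts by -0.22, 0.19, -0.73 and -1.06 in the comparisons with S1, S2, S4 and endosperm, and the share of calls that were higher from 52.3%, 49.7%, 58.4% and 41.5% to 40.8%, 62.8%, 21.4% and 13.7%. With the total without the 100 largest counts the share against S2 was 37.8%. With at least 10 counts in every sample, which left 31 members in the stage tests and 24 in the tissue test, 1 was lower against S2, 6 lower against S4, and 14 higher and 1 lower against endosperm. In a fit of both temperatures 0 were lower than in endosperm. With an absolute log2 fold change of at least 1, 15 were higher than S2, 12 higher than S4 and 6 above all stages.

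Leaving out single libraries gave 9 to 15 above all stages, 33 to 37 higher and 0 to 2 lower against S1, 18 to 21 and 2 to 2 against S2, 16 to 19 and 7 to 15 against S4, and 26 to 26 and 0 to 2 against endosperm. The median ratio of heat stress to standard temperature at S3 was -1.44 to -0.96, and 19 to 21 members were highest in heat-stress S3 and 16 to 22 in S4. The rule found 34 to 107 transcripts. It found 15 with CPM of the whole column, 20 with TMM-scaled CPM, 79 with group medians and 31 with a pseudocount of 5. In the same order, these lists held 22%, 40%, 86% and 62% of the members. Of the 107 found without replicate 2, 14.95% were above all stages, a setting chosen after the data were seen, against 30% of the members. In this list 45.8% were higher than S1 against 70%, 29.9% higher than S2 against 46%, 19.6% higher and 40.2% lower than S4 against 38% and 26%, and 42.1% higher and 11.2% lower than endosperm against 54% and 4%. Deviations of log2 CPM from the group mean were correlated between same-numbered libraries of heat-stress embryo S3 and the other heat-stress embryo stages. The correlations of these deviations ran from -0.19 to 0.11. Pairing by number between embryo and endosperm was not checked. With a replicate block 34 members were higher than S1, 23 than S2, 19 than S4 and 15 than all stages. For the transcripts named, 184 values under alternatives kept their call and 13 lost it, with no change of direction. A named transcript that a filter removed under an alternative entered neither number. The causes of these changes were not tested, and neither was the part of the smaller number of members under the stricter filter.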
